A study of Homo sapiens with 6 samples.

Results

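The nuclear genes for the proteins of the mitochondrial ribosome were compared between HCT116 cells treated with irinotecan and cells that received DMSO. Members were the protein-coding rows of the deposited gene table whose symbol is MRPL or MRPS followed by a digit, which gave 78 genes of 30560 rows, on 21 chromosomes. HCT116 is an established human colorectal carcinoma cell line, here of wild-type genotype per the labels, and irinotecan (CPT-11) is a camptothecin prodrug whose active metabolite traps topoisomerase I on DNA. There were 3 CPT-11 samples, treated at 10 µM for 48 h, and 3 DMSO control samples, all sequenced as total RNA of whole cultures of this cell line alone. The series text speaks of duplicates although the labels give 3 samples a group. No label tells separate cultures from repeat preparations of 1 culture, so every p-value reflects the spread among these 6 libraries, and that spread may be technical.

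Mitochondria keep a small genome whose protein products belong to the respiratory chain and ATP synthase, and they translate it on a ribosome of their own. Its RNAs are transcribed inside the organelle, whereas all of its proteins are encoded in the nucleus, made in the cytosol and imported. Some of these proteins have a counterpart in bacterial ribosomes and the others arose with mitochondria, and together they build a small subunit, which decodes the message, and a large subunit, which forms peptide bonds at the inner membrane.

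Values are normalized counts, that is, reads per gene divided by a library size factor. Libraries held 15398464 to 18031195 reads on genes, so that a floor of 3 reads equals 0.166 to 0.195 CPM (counts scaled to the library total). CDKN1A, a p53 target, rose in the CPT-11 samples by 2.79 on the log2 scale. All 5 epithelial markers searched (EPCAM, KRT8, KRT18, KRT19 and CDH1) were present, PTPRC and PECAM1 had at most 4 reads in any library, and the fibroblast collagen COL1A1 had 1234, 927 and 1043 normalized counts in the CPT-11 samples, against 529, 649 and 597 in controls. The part of such other transcripts in the results below was not tested, and in RNA of whole cultures fewer cells of a kind and less RNA per cell cannot be told apart. Libraries numbered 1 stood apart within both groups, as described below with the transcript composition of the members.

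Mitoribosomal protein genes were higher in more cases than they were lower after CPT-11, by small amounts. Of 78 members 77 had a mean of at least 10 normalized counts and were tested, each with at least 51.0 in every library. Among them 25 rose and 8 fell at an adjusted p below 0.05 in limma, and 44 did not pass. These were 32.5% and 10.4% of the tested members (42.9% together), whereas 24.3% rose and 25.1% fell (49.4% together) over all 16239 tested genes. The median log2 fold change was 0.18 over the tested members and 0.01 over all tested genes. Once a trend over the genomic span of genes, described below, was removed, the members' median was 0.03. That of the tested protein-coding genes, over which the trend was fitted, was then −0.01. The members ran from −1.17 to 0.88, with 53 above 0 and 24 below. Changes of at least 1.5-fold were found for 5 of the raised and 3 of the lowered members, and only MRPL48 and MRPS28, both lower, changed at least 2-fold. The CPT-11 and control values did not overlap for 29 members with higher and 10 with lower CPT-11 values, against 27.8% and 28.8% of all tested genes. Together the 78 members took 0.435% ± 0.00583 of reads in CPT-11 samples and 0.393% ± 0.00261 in controls (SD, n = 3 each), and the ratio of their summed normalized counts was 1.08. CPT-11 samples 1, 2 and 3 had median member differences of 0.16, 0.18 and 0.16 on the log2 scale from the control mean. Without CPT-11 sample 2, 15 members passed as higher and 8 as lower, which is 19.5% and 10.4%, against 19.8% and 22.5% of all tested genes. Without both libraries numbered 1, 30 were higher and 15 lower (39.0% and 19.5%, against 25.8% and 26.7% of all tested genes). With a library-total scaling that left out mitochondrial genes 40 were higher and 7 lower (51.9% and 9.09%), and the shares of all tested genes moved too, to 29.5% higher and 21.3% lower. At the authors' deposited adjusted p below 0.05, 24 members were higher and 8 lower, and all of these were among the calls given here. By the same values 12% of all 30560 rows were higher and 12.5% lower, low genes included. Those shares are not a like comparison for the members, of which 77 of 78 had a mean of at least 10 normalized counts.

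**Figure D1:**
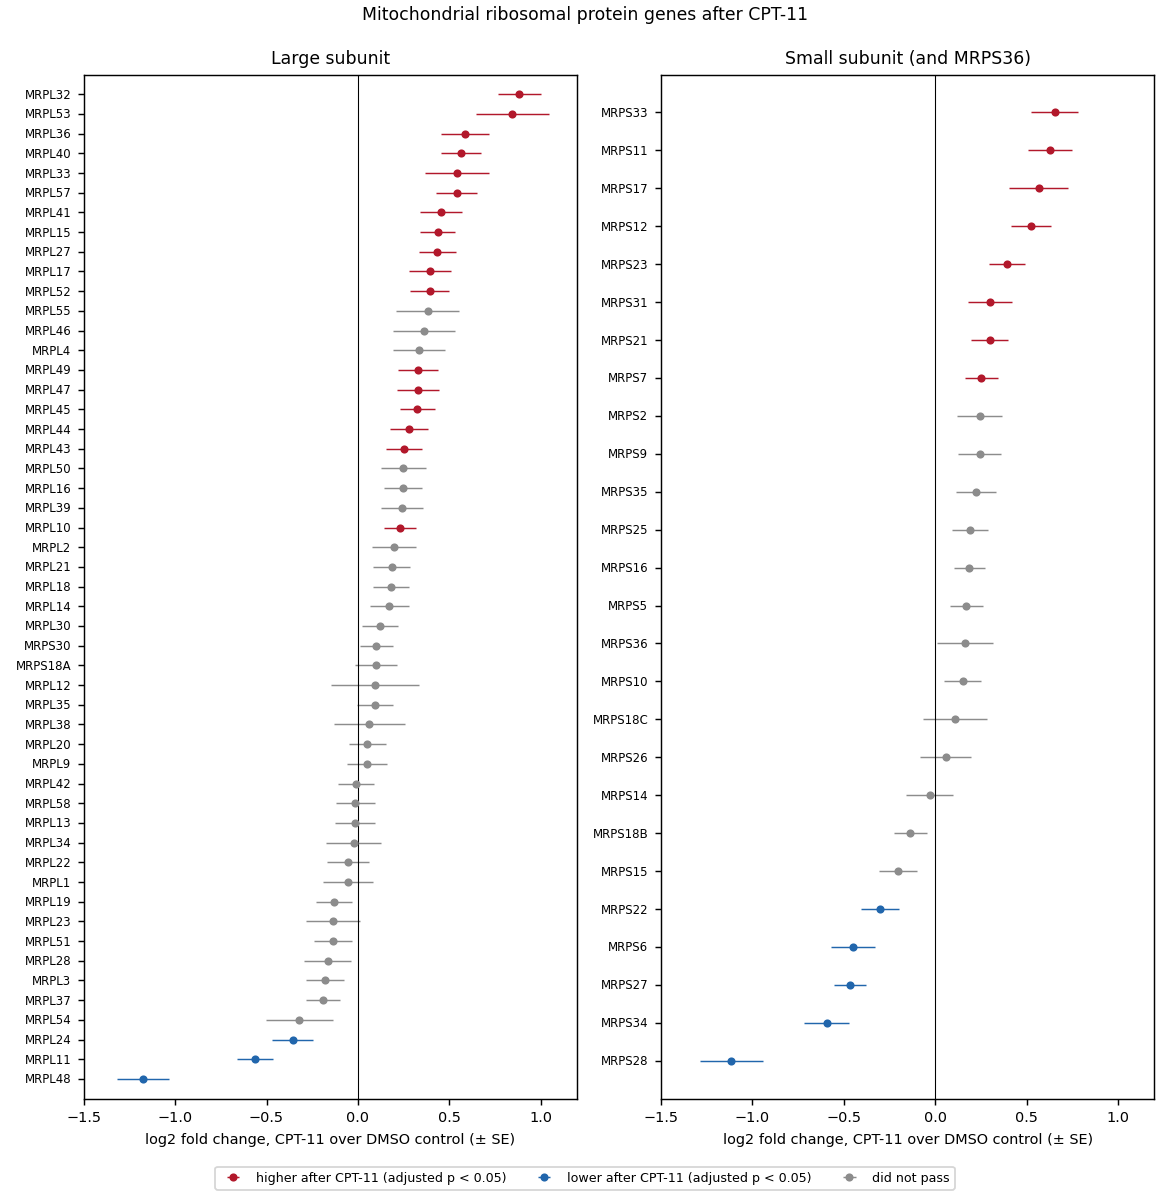
Each point is 1 tested member with its log2 fold change (CPT-11 over DMSO control, horizontal axis) and its standard error, ordered by value within the large subunit (left) and the small subunit with MRPS36 (right). Values run from −1.17 for MRPL48 to 0.88 for MRPL32, and the members that did not pass (grey) lie between −0.32 and 0.38.

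The 250 bases before the RefSeq transcription start are shown for 4 members: MRPL32 and MRPL48, the most raised and the most lowered, and MRPL27 and MRPS34, each of which moved opposite to the gene that starts beside it on the other strand. Capitals mark the YY1 core in MRPL32 (AAGATGGCG on the other strand) and the ETS core CCGGAAG, on either strand, in the other 3. Both are letter matches, not shown binding sites. Sequences run 5′ to 3′ along the strand of the gene, from the RefSeq table of build GRCh38.p14, for the start that the table lists first for the gene. These starts differ from the deposited gene starts. The MRPL48 window lies inside the gene as deposited, which starts at 73787316. The MRPL32 window extends past the deposited start of that gene at 42932200.
MRPL32 (chr7:42932126-42932375, plus strand): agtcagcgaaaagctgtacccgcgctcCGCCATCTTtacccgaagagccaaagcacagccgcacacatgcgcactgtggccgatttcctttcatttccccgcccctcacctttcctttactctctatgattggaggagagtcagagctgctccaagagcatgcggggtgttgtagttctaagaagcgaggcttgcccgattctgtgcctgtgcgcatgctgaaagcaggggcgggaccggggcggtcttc
MRPL48 (chr11:73787624-73787873, plus strand): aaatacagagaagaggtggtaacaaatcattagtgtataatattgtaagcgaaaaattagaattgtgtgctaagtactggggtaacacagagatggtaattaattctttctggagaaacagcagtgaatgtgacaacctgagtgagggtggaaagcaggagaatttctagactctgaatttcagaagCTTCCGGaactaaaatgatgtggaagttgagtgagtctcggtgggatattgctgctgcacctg
MRPL27 (chr17:50373185-50373434, minus strand): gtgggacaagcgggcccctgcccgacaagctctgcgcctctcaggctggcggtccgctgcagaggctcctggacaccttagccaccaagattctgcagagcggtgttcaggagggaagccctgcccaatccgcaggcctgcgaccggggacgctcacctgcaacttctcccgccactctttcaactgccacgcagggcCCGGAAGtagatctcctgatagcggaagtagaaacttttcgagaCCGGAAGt
MRPS34 (chr16:1773135-1773384, minus strand): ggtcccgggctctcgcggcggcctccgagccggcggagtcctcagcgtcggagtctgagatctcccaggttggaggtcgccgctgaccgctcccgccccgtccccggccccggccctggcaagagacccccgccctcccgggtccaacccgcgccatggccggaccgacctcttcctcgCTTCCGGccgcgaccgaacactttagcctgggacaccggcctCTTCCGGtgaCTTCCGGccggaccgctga

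MRPL32, whose protein is cut to its mature form by the m-AAA protease of the inner membrane before it joins the large subunit, was the most raised member. CPT-11 samples held 899, 1129.6 and 1093 normalized counts of MRPL32, against 655, 529.6 and 507 in controls. All 3 CPT-11 values lay above all 3 control values, and the log2 fold change was 0.88 (SE 0.12, adjusted p = 9.23e-06, limma). At the other end stood MRPL48, a protein without a bacterial counterpart that lies in the central protuberance of the large subunit. Normalized counts of MRPL48 were 183, 163 and 219 in CPT-11 samples and 476, 428 and 373 in controls. No CPT-11 value reached the lowest control value, and the log2 fold change was −1.17 (SE 0.14, adjusted p = 2.56e-06).

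**Figure D2:**
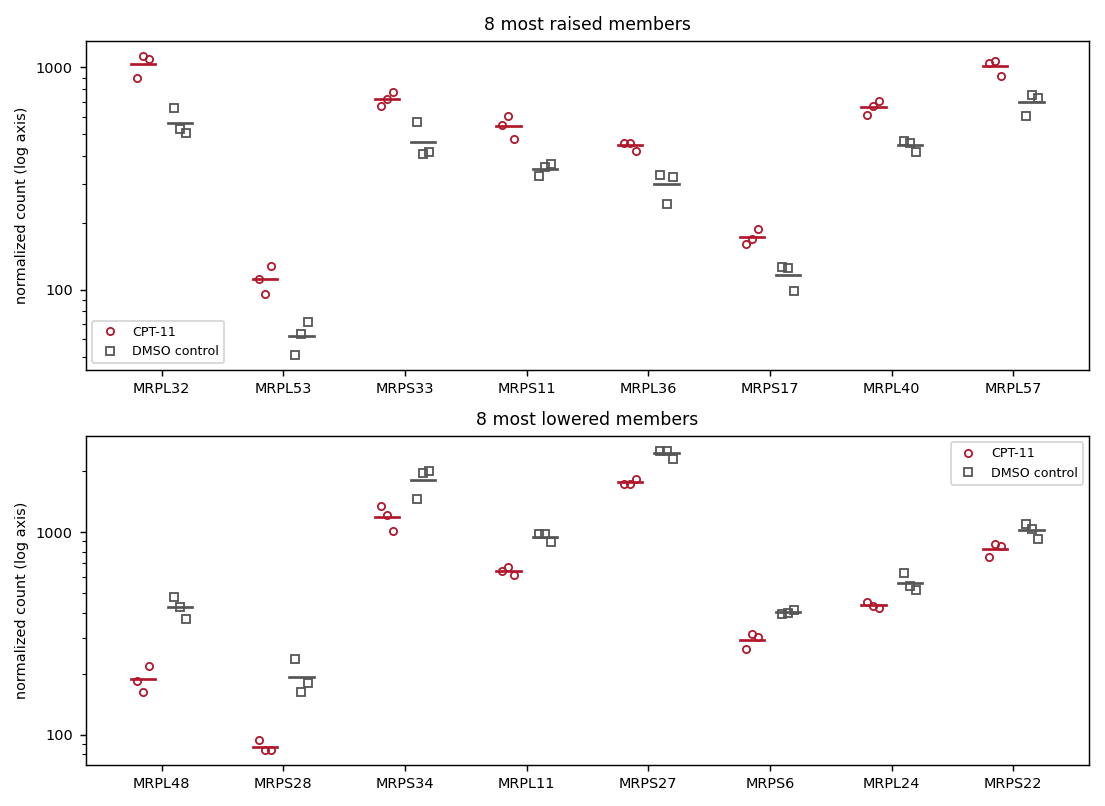
Normalized counts per library (vertical log axis) of the 8 most raised members (top) and the 8 most lowered (bottom) whose groups do not overlap, with CPT-11 samples as circles left of DMSO controls as squares and a bar at each group's mean. MRPL48 lies between 163 and 219 in CPT-11 samples, against 373 to 476 in controls.

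In the large subunit, 17 of 51 tested members rose and 3 fell (33.3% and 5.88%), with a median log2 change of 0.18. Over all tested genes the shares were 24.3% and 25.1%. The 30 members with a bacterial counterpart had 8 higher and 2 lower (26.7% and 6.67%) and a median of 0.15. The 21 without one had 9 higher and 1 lower (42.9% and 4.76%) and a median of 0.25. MRPL53, a mitochondria-specific protein of the large subunit, was a low-count gene. For MRPL53, 112, 95.2 and 128 normalized counts were found in CPT-11 samples, against 51.0, 63.1 and 71.7 in controls. All 3 CPT-11 values were the higher ones, at a log2 change of 0.85 (SE 0.20, adjusted p = 0.00203). Of its exonic bases 45.2% are shared with CCDC142 on the same strand, so its count is uncertain.

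MRPL36, MRPL40 and MRPL57 rose by similar amounts and also had no overlap between the groups. MRPL36 is among the smallest ribosomal proteins and has a bacterial counterpart. The CPT-11 samples had 455, 459 and 423 normalized counts of MRPL36 and the controls 329, 244 and 323. Its log2 fold change was 0.59 (SE 0.13, adjusted p = 0.00121). MRPL40 and MRPL57 are mitochondria-specific. With MRPL40, the CPT-11 samples gave 609, 673 and 707 normalized counts and the controls 469, 458 and 415. In CPT-11 samples MRPL57 had 1049, 1069 and 913 normalized counts, against 607, 755 and 725 in controls. The log2 fold changes were 0.57 for MRPL40 (SE 0.11, adjusted p = 0.000334) and 0.54 for MRPL57 (SE 0.11, adjusted p = 0.000532).

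Besides MRPL48, MRPL11 and MRPL24 were lower. MRPL11 sits at the base of the stalk where translation factors dock. MRPL11 reached 640.1, 675 and 611 normalized counts in CPT-11 samples and 980.0, 975 and 891 in controls. Its log2 fold change was −0.56 (SE 0.10, adjusted p = 0.000139), with every CPT-11 value below every control value. MRPL24 has a bacterial counterpart that binds ribosomal RNA early in the assembly of its subunit. MRPL24 had 451, 433 and 423 normalized counts in CPT-11 samples, against 625, 539 and 515 in controls. The log2 fold change was −0.36 (SE 0.11, adjusted p = 0.0139). Without control 1 it was −0.27 and lost the call, at an adjusted p of 0.0627. In the other 18 alternatives, among them leaving out both libraries numbered 1, MRPL24 still passed.

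The stalk itself is built from MRPL10, its anchor, and MRPL12. MRPL10 rose slightly. CPT-11 samples held 1776, 1743 and 1709 normalized counts of MRPL10, against 1434, 1577 and 1451 in controls. Its log2 fold change of 0.23 (SE 0.09, adjusted p = 0.0383) no longer passed when CPT-11 sample 1, 2 or 3 or control 1 or 3 was left out, at adjusted p of 0.0631 to 0.115. MRPL12, the stalk protein that contacts elongation factors and is reported to bind the mitochondrial RNA polymerase, spread widely among controls. Normalized counts of MRPL12 were 554, 418 and 353 in CPT-11 samples and 232, 564 and 516 in controls. Control 1 lay far below the other controls, the groups overlapped, and the log2 fold change was 0.09 (SE 0.24, adjusted p = 0.773). Without both libraries numbered 1 it was −0.49 (adjusted p = 0.000966). AC139530.2 shares 68.2% of the exonic bases of MRPL12 on the same strand.

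Several large-subunit proteins are known for other roles or for disease. MRPL41 is mitochondria-specific and has been linked to apoptosis. For MRPL41, 1006, 857 and 766 normalized counts were found in CPT-11 samples, against 585, 631 and 695 in controls. All CPT-11 values were above all control values, at a log2 change of 0.45 (SE 0.12, adjusted p = 0.00332), which became 0.14 (adjusted p = 0.177) once a trend over transcript GC content was removed from each library and 0.29, still past the threshold, without both libraries numbered 1. MRPL44, which resembles the RNase III family and is mutated in a form of infantile cardiomyopathy, had a log2 change of 0.28 (SE 0.10, adjusted p = 0.0304). The CPT-11 samples had 1064, 1211 and 1195 normalized counts of MRPL44 and the controls 1066, 896 and 899.6. Control 1 overlapped the lowest CPT-11 value, and the call was lost without CPT-11 sample 2 or 3 or control 2 or 3, at adjusted p of 0.0971 to 0.126. MRPL58 (ICT1), a peptidyl-tRNA hydrolase built into the central protuberance, did not pass, at a log2 change of −0.01 (SE 0.11, adjusted p = 0.923). With MRPL58, the CPT-11 samples gave 548, 516 and 546 normalized counts and the controls 513, 591 and 525. The groups overlapped.

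MRPL3, a protein near the peptidyl transferase centre, did not pass either. In CPT-11 samples MRPL3 had 2024, 2342 and 2424 normalized counts, against 2949, 2416 and 2337 in controls. Its log2 fold change was −0.18 (SE 0.10, adjusted p = 0.164), and the highest of the 6 values was control 1. MRPS30 and MRPS18A carry small-subunit names but lie in the large subunit in structures of the mammalian mitoribosome. Their log2 fold changes were 0.10 each, with SE 0.09 and adjusted p = 0.373 for MRPS30 and SE 0.12 and adjusted p = 0.503 for MRPS18A, and the groups overlapped for both. The remaining large-subunit members that rose were MRPL15, MRPL17, MRPL33, MRPL43, MRPL47, MRPL49 and MRPL52, besides MRPL27 and MRPL45 described below, at log2 changes of 0.25 to 0.54. MRPL43 lost the call without CPT-11 sample 1 or 2 or control 1 or 3 (adjusted p of 0.0733 to 0.138), and its log2 change of 0.25 became 0.10 (adjusted p = 0.216) with the GC trend removed. The call was lost for MRPL47 without CPT-11 sample 2 or 3 or control 2 or 3 (0.084 to 0.103), and for MRPL49 without CPT-11 sample 1 or 2 (0.0801 and 0.0562). Without both libraries numbered 1, MRPL49 was at 0.16 (adjusted p = 0.0809), against 0.33 with them, MRPL17 at 0.25, against 0.40, and MRPL47 at 0.52, against 0.33, and MRPL17 and MRPL47 still passed. The 31 that did not pass ran from −0.32 for MRPL54 to 0.38 for MRPL55.

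In the small subunit, 8 of 25 tested members rose and 5 fell, with a median log2 change of 0.19. The 15 tested members with a bacterial counterpart had 5 higher and 2 lower (33.3% and 13.3%) and a median of 0.19. The 10 without one had 3 higher and 3 lower and a median of 0.12, and their summed normalized counts were 11699 ± 131 in CPT-11 samples and 12099 ± 295 in controls (SD, n = 3 each). MRPS33, a mitochondria-specific protein of the small subunit, and MRPS11, a platform protein with a bacterial counterpart, rose most. MRPS33 reached 672, 718 and 778 normalized counts in CPT-11 samples and 566, 409 and 416 in controls. MRPS11 had 550.2, 602 and 476 normalized counts in CPT-11 samples, against 324, 355 and 369 in controls. Neither gene had overlapping groups, and the log2 fold changes were 0.65 for MRPS33 (SE 0.13, adjusted p = 0.000369) and 0.63 for MRPS11 (SE 0.12, adjusted p = 0.000295).

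MRPS12, which lies at the decoding centre, and MRPS17, which binds ribosomal RNA early in its bacterial form, rose as well. CPT-11 samples held 1635, 1562 and 1359.8 normalized counts of MRPS12, against 913, 1184 and 1076 in controls. Normalized counts of MRPS17 were 161, 169 and 188 in CPT-11 samples and 127, 125 and 98.1 in controls. The groups did not overlap for either, and the log2 fold changes were 0.53 for MRPS12 (SE 0.11, adjusted p = 0.000636) and 0.57 for MRPS17 (SE 0.16, adjusted p = 0.00774). With the GC trend removed MRPS12 was at 0.35 and still passed. MRPS17 shares 27.0% of its exonic bases with other genes on its strand. MRPS7, which organises the head of the small subunit in bacteria, had a log2 change of 0.25 (SE 0.09, adjusted p = 0.0277). For MRPS7, 1629, 1475 and 1450.2 normalized counts were found in CPT-11 samples, against 1287, 1257 and 1275 in controls. The values did not overlap, but the call was lost without CPT-11 sample 1 or 2 or control 2 or 3, at adjusted p of 0.0629 to 0.0812.

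The 5 lowered small-subunit members were MRPS28, MRPS34, MRPS27, MRPS6 and MRPS22. MRPS28 has a bacterial counterpart and MRPS34 has none, and both are mutated in inherited respiratory chain deficiencies. The CPT-11 samples had 93.5, 84.1 and 84.1 normalized counts of MRPS28 and the controls 235, 163 and 179. With MRPS34, the CPT-11 samples gave 1338, 1218 and 1015 normalized counts and the controls 1455, 1963 and 1992. Every CPT-11 value lay below every control value, and the log2 fold changes were −1.12 for MRPS28 (SE 0.17, adjusted p = 3.89e-05) and −0.59 for MRPS34 (SE 0.12, adjusted p = 0.0007). AC036214.3 shares 35.8% of the exonic bases of MRPS28 on the same strand.

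MRPS27, a pentatricopeptide repeat protein, and MRPS6, which has a bacterial counterpart, fell by less. In CPT-11 samples MRPS27 had 1732, 1734 and 1837 normalized counts, against 2517, 2515 and 2298 in controls. MRPS6 reached 265, 315 and 303 normalized counts in CPT-11 samples and 392, 399 and 414 in controls. The groups did not overlap, at log2 fold changes of −0.47 for MRPS27 (SE 0.09, adjusted p = 0.000228) and −0.45 for MRPS6 (SE 0.12, adjusted p = 0.00464). MRPS22, another protein mutated in inherited respiratory chain deficiency, was at −0.30 (SE 0.10, adjusted p = 0.0223). MRPS22 had 756, 877 and 853 normalized counts in CPT-11 samples, against 1099, 1041 and 925 in controls. Its call was lost without CPT-11 sample 1 or control 1 or 2, at adjusted p of 0.0591 to 0.0717, and the log2 fold change was −0.18 (adjusted p = 0.0738) without both libraries numbered 1.

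The other small-subunit members that rose, MRPS21, MRPS23 and MRPS31, had log2 changes of 0.30 to 0.40. MRPS21 and MRPS31 lost the call without CPT-11 sample 2 or 3 or control 2 or 3, at adjusted p of 0.0755 to 0.176, and MRPS31 was at 0.47, against 0.30, without both libraries numbered 1. The 12 tested small-subunit members that did not pass ran from −0.20 for MRPS15 to 0.24 for MRPS2 and MRPS9. MRPS5, near the entrance of the message, had a log2 change of 0.17 (SE 0.09, adjusted p = 0.13), and MRPS16, a bacterial-type protein mutated in a fatal neonatal disorder, had 0.19 (SE 0.09, adjusted p = 0.0796). CPT-11 samples held 1676, 1756 and 1711 normalized counts of MRPS16, against 1502, 1502 and 1514 in controls. Its CPT-11 values were all above its control values although it did not pass. The 3 proteins with the MRPS18 name are related to the same bacterial protein, but only MRPS18C was grouped here with the members that have a bacterial counterpart. MRPS18B and MRPS18C, which lie in the small subunit, had −0.14 (SE 0.09, adjusted p = 0.221) and 0.11 (SE 0.17, adjusted p = 0.63), and MRPS18A is given above. MRPS36, now counted to the 2-oxoglutarate dehydrogenase complex and kept apart from both subunits, had 0.16 (SE 0.16, adjusted p = 0.407).

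Levels per kilobase of listed gene length, as a mean over the 6 samples, spanned a wide range, with a median of 296 normalized counts per kb. MRPS34 was highest at 1364, with 1085 in CPT-11 samples and 1644 in controls. MRPL3 followed at 890, with 834 in CPT-11 samples and 946 in controls. MRPL45, the large-subunit protein by which the mitoribosome sits on the inner membrane, came next at 869, with 966 in CPT-11 samples and 772 in controls. It rose, at a log2 change of 0.33 (SE 0.10, adjusted p = 0.0101), and lost the call without CPT-11 sample 2 or control 2 or 3, at adjusted p of 0.051 to 0.0732. Its pseudogene MRPL45P2 rose too. Normalized counts of MRPL45P2 were 183, 207 and 189 in CPT-11 samples and 131, 85.6 and 111 in controls. The split of reads between the pair was not tested.

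At the low end, MRPL38 stood at 26.0 normalized counts per kb, MRPL46 at 17.2 and MRPS24 at 2.59. MRPL38 and MRPL46 belong to the central protuberance, and their log2 fold changes were 0.06 (SE 0.19, adjusted p = 0.807) and 0.36 (SE 0.17, adjusted p = 0.0866). For MRPL46, 122, 114 and 139 normalized counts were found in CPT-11 samples, against 93.0, 94.2 and 103 in controls. The groups did not overlap for MRPL46, which did not pass. MRPL38 shares 37.5% and MRPL46 11.3% of exonic bases with other genes on the same strand, so their levels are uncertain. MRPS24, a bacterial-type small-subunit protein, was not tested. The CPT-11 samples had 1.8, 5.1 and 6.3 normalized counts of MRPS24 and the controls 12, 3.2 and 12.3. The readthrough gene URGCP-MRPS24 shares 23.2% of its exonic bases, and the rule for reads on shared bases is not stated in the labels or the file header. In all, 26 members share more than 10% of their exonic bases with another gene of GENCODE release 29, and 16 have a pseudogene of the same name in the table.

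For 17 members another protein-coding gene starts within 1000 bases upstream on the opposite strand, and MRPS11 and MRPL46 are partners of each other. The partners of MRPL32 and MRPL52 were not tested. In 3 of these pairs both genes passed, in opposite directions. In another 4 pairs the log2 fold changes had opposite signs without both passing. Both genes were above 0 in the other tested pairs. These were MRPL10 with LRRC46, MRPL21 with IGHMBP2, MRPL41 with PNPLA7, MRPL47 with NDUFB5, MRPL50 with ZNF189, MRPS18C with HELQ, and MRPS11 with MRPL46. How often such pairs are opposite over all genes was not counted. MRPL27, a protein that reaches towards the peptidyl transferase centre in bacteria, starts 6 bases from EME1, which encodes a partner of the MUS81 DNA endonuclease, so that the MRPL27 promoter printed above reaches into EME1. With MRPL27, the CPT-11 samples gave 1010.4, 863 and 964 normalized counts and the controls 662, 705 and 729. In CPT-11 samples EME1 had 148, 174 and 148 normalized counts, against 437, 416 and 407 in controls. The log2 fold changes were 0.43 for MRPL27 (SE 0.10, adjusted p = 0.00168) and −1.42 for EME1 (SE 0.13, adjusted p = 8.11e-08). MRPL57 starts 43 bases from SKA3, a kinetochore protein, which fell. SKA3 reached 287, 302 and 339 normalized counts in CPT-11 samples and 786, 854 and 669.5 in controls. SKA3 thus had a log2 change of −1.31 (SE 0.12, adjusted p = 8.67e-08).

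The reverse held for MRPS34, which fell while EME2, the other MUS81 partner, 52 bases away, rose. The MRPS34 promoter printed above reaches into EME2, which starts at 1773207. EME2 had 1257, 909 and 941 normalized counts in CPT-11 samples, against 475, 524 and 538 in controls. The log2 fold change of EME2 was 1.0 (SE 0.12, adjusted p = 2.82e-06). The pair MRPS11 and MRPL46 consists of 2 members 34 bases apart, at 0.63 and 0.36, of which MRPS11 alone passed. MRPL36 and MRPL47 start beside the complex I genes NDUFS6 and NDUFB5, whose log2 fold changes of −0.21 and 0.22 did not pass. The 3 opposite pairs were chosen after their values were seen.

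Promoters were found for 69 of 78 members in the RefSeq table. In windows from 250 bases before to 50 after the start, the ETS core CCGGAAG, on either strand, occurred in 42.0% of the members' promoters, against 10.7% of all 27305 promoters and 18.7% of those of 10411 tested protein-coding genes. The YY1 core AAGATGGCG occurred in 18.8%, against 1.85% of all and 3.87% of tested protein-coding genes. The NRF1 core CGCATGCG stood in 4.35%, 2.19% and 3.78%, and the E-box CACGTG in 8.70%, 7.43% and 9.98%, of the same sets. Among members with a promoter, the ETS core was in 12 of 23 that rose, 3 of 7 that fell and 14 of 38 that did not pass. The YY1 core was in 3 of 23, 0 of 7 and 9 of 38. These are matches of letters in a window and a description only.

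Factors that bear these names, and other regulators, were measured as well. Of 8 tested regulators 2 rose and 4 fell. GABPB1, a subunit of the ETS factor GABP, fell. CPT-11 samples held 197, 227 and 186 normalized counts of GABPB1, against 470.0, 382 and 374 in controls. Its log2 fold change was −1.0 (SE 0.14, adjusted p = 9.05e-06), whereas GABPA, the DNA-binding subunit, had −0.14 (SE 0.11, adjusted p = 0.281). NRF1, a regulator of nuclear genes for mitochondria, fell by nearly the same amount. Normalized counts of NRF1 were 219.5, 215 and 237 in CPT-11 samples and 425, 476 and 421 in controls. NRF1 was at −0.97 (SE 0.12, adjusted p = 3.52e-06). YY1 was at −0.31 and the coactivator PPARGC1B at −0.42, both lower (adjusted p = 0.00608 and 0.0025). The nuclear receptor ESRRA, at 0.60 (adjusted p = 0.000428), and MYC, at 0.46 (adjusted p = 0.000728), were higher, and the coactivator PPRC1, at 0.10 (adjusted p = 0.348), did not pass.

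The RNA and protein partners of the members moved to different extents. Both mitoribosomal RNAs rose. For MT-RNR1, 69315, 73675 and 78392 normalized counts were found in CPT-11 samples, against 24858, 19686 and 19317 in controls. The CPT-11 samples had 217230.0, 251649.6 and 256424 normalized counts of MT-RNR2 and the controls 176770.0, 155035 and 137588. The log2 fold change was 1.80 for MT-RNR1, the small-subunit RNA (SE 0.10, adjusted p = 2.94e-10), and 0.63 for MT-RNR2, the large-subunit RNA (SE 0.12, adjusted p = 0.000209). The mitochondrial chromosome took 9.71%, 10.3% and 10.9% of reads in CPT-11 samples, against 7.42%, 7.45% and 6.85% in controls, and the labels do not say how polyadenylated or ribosomal RNA was selected. Of the 13 mitochondrially encoded protein genes 9 rose and the other 4 did not pass, with a median log2 change of 0.44, led by the complex I genes MT-ND2 at 1.11 (adjusted p = 3.89e-08) and MT-ND3 at 0.92 (adjusted p = 0.000422). Of the 5 mitoribosome proteins without an MRP name GADD45GIP1 rose, at 0.34 (adjusted p = 0.015). DAP3, a GTP-binding protein of the small subunit, at −0.08, CHCHD1, at 0.18, AURKAIP1, at 0.25, and PTCD3, at 0.03, did not pass.

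Of 25 genes for assembly of the mitoribosome and modification of its RNA, 12 rose and 2 fell, with a median log2 change of 0.29. These were 48.0% and 8.0%, against 24.3% and 25.1% of all tested genes. TRUB2, a pseudouridine synthase, was at 0.84 (adjusted p = 6.79e-07). METTL15, which methylates the small-subunit RNA, fell most. With METTL15, the CPT-11 samples gave 366, 453 and 482 normalized counts and the controls 1259, 1011 and 1072. Its log2 fold change was −1.36 (SE 0.12, adjusted p = 5.84e-08). Among 17 mitochondrial translation factors 5 rose (29.4%) and the other 12 did not pass, with a median of 0.11. GFM2, which takes ribosomes apart for recycling, was at 0.81 (adjusted p = 3.36e-06). TACO1, a translational activator of COX1, was at 0.48 (adjusted p = 0.000914). Of 5 genes of mitochondrial transcription 2 rose, the transcription factor TFB2M at 0.58 (adjusted p = 0.000157) and the RNA polymerase POLRMT at 0.41 (adjusted p = 0.00514).

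Of 20 genes that charge mitochondrial tRNAs 5 rose and 8 fell, with a median of −0.18. FARS2, for phenylalanine, fell and MARS2, for methionine, rose. In CPT-11 samples FARS2 had 50.3, 58.8 and 43.1 normalized counts, against 188, 185 and 189.5 in controls. MARS2 reached 901, 984 and 972 normalized counts in CPT-11 samples and 572, 549 and 599.7 in controls. The log2 fold changes were −1.88 for FARS2 (SE 0.18, adjusted p = 1.53e-07) and 0.73 for MARS2 (SE 0.10, adjusted p = 9.17e-06). Cytosolic ribosomal protein genes, the counterpart outside the organelle, had 1 higher and 29 lower of 79 tested (1.27% and 36.7%) and a median of −0.19. They took 5.30% ± 0.0968 of reads in CPT-11 samples, against 5.88% ± 0.101 in controls (SD, n = 3 each). The list was drawn by symbol and so includes RPS19BP1, which is not a ribosomal protein gene and did not pass, at 0.19. RPS2, a small subunit protein, changed by −0.65 on the log2 scale (adjusted p = 0.000189). Nuclear genes of the respiratory chain and ATP synthase had 13 higher and 10 lower of 83 tested and a median of 0.02, and COX6B2, at −0.84 (adjusted p = 0.0442), and NDUFV3, at 0.70 (adjusted p = 1.19e-05), changed most among those averaging at least 1 CPM. The lists were not tested against each other.

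**Figure D3:**
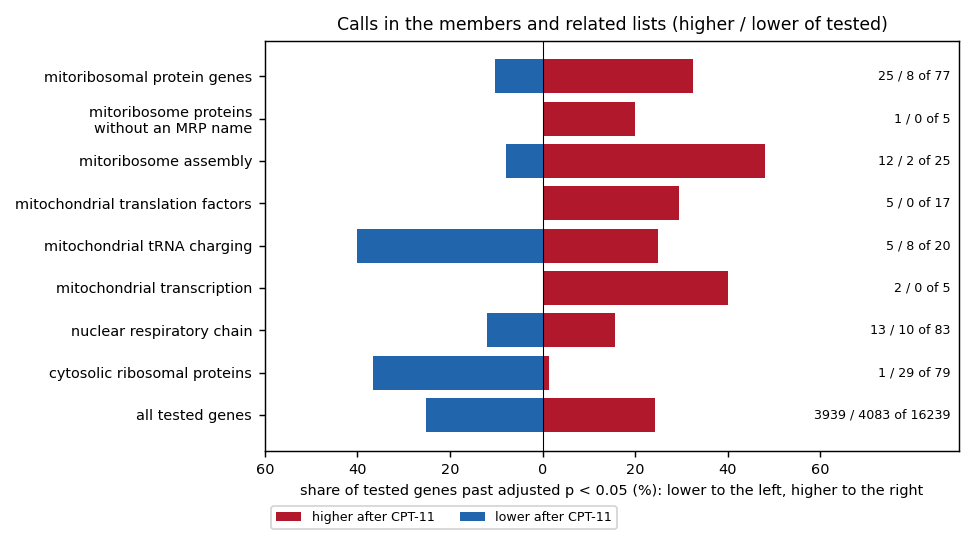
Horizontal bars give the percentage of tested genes that were higher (right of 0) or lower (left of 0) after CPT-11 at an adjusted p below 0.05, for the members, 7 related lists and all tested genes, with the counts at the right edge. The members had 25 higher and 8 lower of 77, against 1 higher and 29 lower of 79 in the list of cytosolic ribosomal protein genes, which includes RPS19BP1.

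Gene span, the distance from a gene's start to its end on the genome, moved with the fold change. The members are short, at a median of 12.4 kb, against 26.3 kb over all tested genes. By group, the median ran from 8.59 kb in large-subunit members without a bacterial counterpart to 19.1 kb in small-subunit members without one. Of the related lists, tRNA charging genes had a median of 35.0 kb, the regulators 41.2 kb and cytosolic ribosomal protein genes 5.33 kb. Among lowered genes named above FARS2 spans 568 kb, METTL15 419 kb, NRF1 145 kb and GABPB1 80.0 kb, but RPS2 2.81 kb. The part of span in the list differences was not tested. Of the 20 members under 5 kb 9 rose and 2 fell (45.0% and 10.0%), the 2 being MRPS34 and MRPL24, against 33.7% higher and 15.6% lower in the 1061 protein-coding genes of that class. The median log2 fold changes were 0.25 and 0.16. From 5 to 10 kb 4 of 14 members rose (28.6%) and the other 10 did not pass, against 34.5% higher and 16.2% lower among protein-coding genes. From 10 to 20 kb 9 of 21 rose (42.9%) and the other 12 did not pass, against 34.1% and 16.6%. From 20 to 50 kb 2 of 12 rose and 1 fell (16.7% and 8.33%), against 30.8% and 21.1%. In the class from 5 to 10 kb the medians were 0.19 and 0.17, from 10 to 20 kb 0.19 and 0.15, and from 20 to 50 kb −0.03 and 0.09, members given before all protein-coding genes. Of the 10 members of 50 kb or more 1 rose and 5 fell, with a median of −0.18, against 15.0% higher, 43.8% lower and a median of −0.23 in the 4903 protein-coding genes of that size. The 5 were MRPL48, MRPS28, MRPS27, MRPS6 and MRPS22, and MRPL33, listed at 216 kb, was the member that rose. MRPL33 had 253, 386 and 362 normalized counts in CPT-11 samples, against 287, 201 and 197 in controls. The log2 change was 0.54 (SE 0.17, adjusted p = 0.0147), lost without CPT-11 sample 2 or 3 or control 2 or 3, at adjusted p of 0.0533 to 0.091, and was 0.90 without both libraries numbered 1. Control 1 overlapped CPT-11 sample 1, and BABAM2 shares 21.1% of its exonic bases on the same strand. Across genes Pearson's r between log2 fold change and log10 span was −0.38 over 77 members and −0.30 over 13215 protein-coding genes, all from the same 6 libraries. Once a trend over span was removed the median was 0.03 over the members and −0.01 over the tested protein-coding genes.

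**Figure D4:**
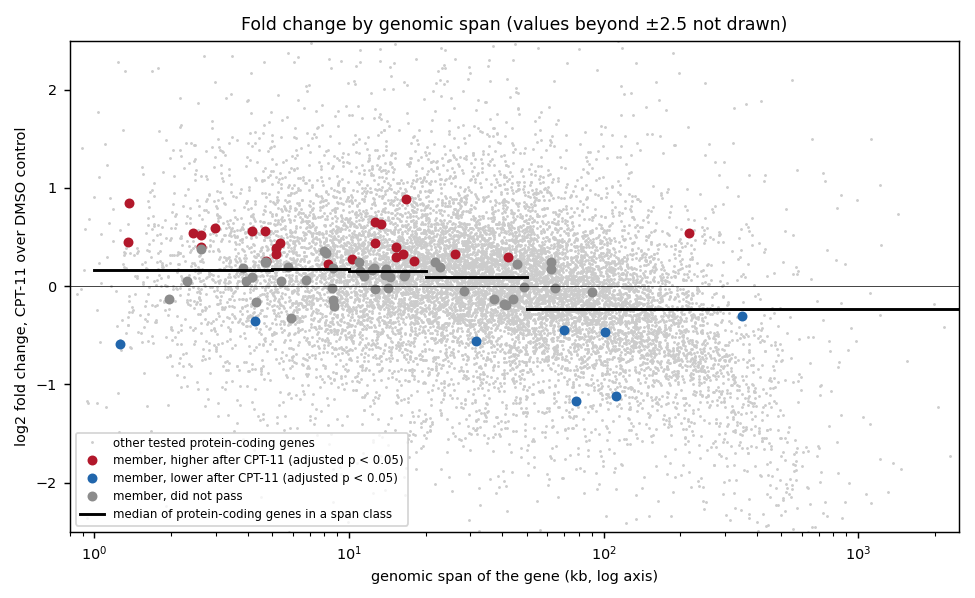
Log2 fold change (CPT-11 over DMSO control, vertical axis) against genomic span in kb (log axis), with members as coloured points, other tested protein-coding genes as small dots and black bars at the median of protein-coding genes in each span class. Those medians go from 0.16 under 5 kb to −0.23 at 50 kb or more.

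The libraries numbered 1 deviated along the base composition of transcripts, in opposite senses, among the members as among protein-coding genes as a whole. Over 77 members, Pearson's r with transcript GC content was 0.80 for CPT-11 sample 1 against CPT-11 samples 2 and 3, and −0.69 for control 1 against controls 2 and 3, as a description across genes of the same libraries. Over 13174 protein-coding genes it was 0.57 and −0.55. In the 26 members of 35.0 to 45.8% GC the median deviation was −0.20 for CPT-11 sample 1 and 0.22 for control 1 on the log2 scale. In the 26 members of 53.4 to 71.9% GC it was 0.20 and −0.17. The log2 fold change had an r of 0.02 with GC content over the members and 0.20 over the protein-coding genes, and the member groups of low, middle and high GC had 7, 10 and 8 members higher and 3, 3 and 2 lower. With the trend over GC content removed from each library, 38 members were higher and 14 lower (49.4% and 18.2%), against 29.6% and 30.1% of all tested genes.

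**Figure D5:**
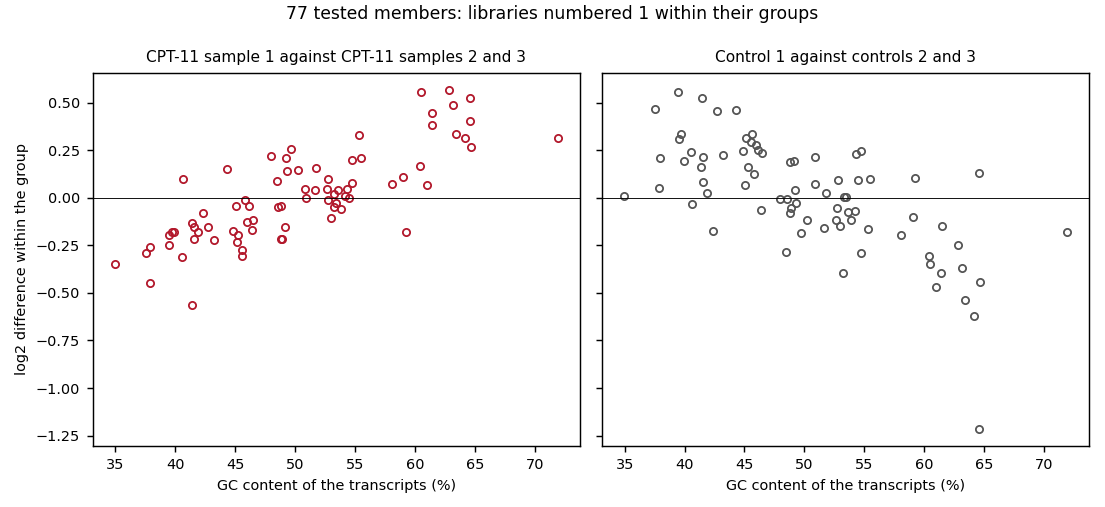
Deviation of the library numbered 1 from the mean of the other libraries of its group (log2, vertical axis) against the GC content of the member's transcripts (percent), for CPT-11 sample 1 (left) and control 1 (right), 1 point per tested member. The points climb with GC content on the left (r = 0.80) and descend on the right (r = −0.69).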

How the data were processed

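RNA of 6 HCT116 samples was sequenced, and 1 table of 30560 genes was analysed. Per the submitters' processing notes the tools were HISAT2 2.1.0, fastp 0.19.3, StringTie 1.3.4d, featureCounts 1.6.2, edgeR 3.24.3 and DESeq2 1.22.1, with build GRCh38 and no roles stated; neither strandedness nor the handling of shared reads is stated there. Each sample's deposited column is a normalized signal, which was 100% whole multiples of 1 read within 0.001 read in every library, so reads per gene had been divided by 1 size factor per library. The log2 fold change, p-value and adjusted p-value that the authors deposited, per the file headers, are quoted only as theirs. Gene length, used per kb, is the deposited one, and exons and GC content are those of GENCODE release 29.

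Fold changes are CPT-11 over DMSO control. They were computed with limma 3.58.1 (mean-variance trend, R 4.3.3) on log2(normalized count + 1) for 16239 genes averaging at least 10, with Benjamini-Hochberg adjustment over all of them; each adjusted p comes from this fit, SE is its standard error, and the added 1 makes changes of low genes smaller. Counting intervals and floors cover counting error only. The script was tested on simulated data. Alternatives covered the pseudocount, filter, scaling, tool (edgeR 4.0.16 and DESeq2 1.42.0 on the recovered whole reads), replicate block, each library left out, both libraries numbered 1 left out, overlapping genes, pseudogenes and trends over span (loess, span 0.5); removing the trend over GC content and a library-total scaling without mitochondrial genes were chosen after seeing the data.

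Members, gene lists, motifs and tests were chosen with earlier results of these data known. Members are named by this rule: the 8 most raised and 8 most lowered of those called with no overlap between groups, the 3 highest and 3 lowest per kb, and 17 taken whatever their result. Of each related list the 2 most changed genes averaging at least 1 CPM are named, and all regulators, all mitoribosome proteins without an MRP name and both ribosomal RNAs, except for genes that are not reported here. Other genes named were chosen after their values were seen.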

Additional observations from a re-analysis of the deposited data

How the results depend on the processing

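Of the 33 called members 20 (14 higher, 6 lower) stayed past the threshold in each of 19 settings and none turned direction; 12 lost the call when 1 library was left out. Against 25 higher and 8 lower, leaving out each library gave 15 to 26 higher and 6 to 8 lower. Leaving out both libraries numbered 1 gave 15 lower, removing the trend over GC content 38 higher and 14 lower, and a library-total scaling without mitochondrial genes 40 higher. Over all tested genes, against 3939 higher and 4083 lower, the same settings gave 4327 lower, 4804 higher and 4878 lower, and 4803 higher. Leaving out members whose gene body overlaps another gene left 33 members, 13 higher and 2 lower (39.4% and 6.06%). Leaving out those with a pseudogene left 61, 16 higher and 8 lower (26.2% and 13.1%). Fewer members entered in both. Over all members the shares were 32.5% and 10.4%, and over all tested genes 24.3% and 25.1%. The labels share replicate numbers but do not say that the samples pair. Deviations of same-numbered samples correlated at −0.227, −0.00564 and −0.102. These values cannot decide on pairing, because the libraries numbered 1 deviated along GC content in opposite senses. A replicate block gave 16 members higher and 7 lower (20.8% and 9.09%, against 20.4% and 21.6% of all tested genes). edgeR gave 26 higher and 8 lower (33.8% and 10.4%, against 25.0% and 24.8% of all tested genes). DESeq2 gave 24 and 8 (31.2% and 10.4%, against 23.5% and 24.5%). Without a filter 22 and 8 passed (28.2% and 10.3%), against 13.5% higher and 13.5% lower of all 30560 rows, low genes included.

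The members' median of 0.18 was 0.18 to 0.19 with 1 library left out, 0.20 with edgeR, 0.21 with library-total scaling, 0.26 with that scaling without mitochondrial genes (all genes 0.09), 0.16 with the GC trend removed, 0.24 without overlapping members and 0.03 with the span trend removed. The cause of these shifts was not tested. Members without a call changed sign. MRPL12 was −0.49 without both libraries numbered 1, −0.14 with the GC trend removed and −0.31 to 0.33 with 1 library left out. MRPL38 was −0.03, −0.16 and −0.07 to 0.23 in the same settings. MRPL3 was 0.00 without both libraries numbered 1, and MRPS18A −0.04 with the GC trend removed. MRPL58 was 0.02 with library-total scaling, 0.07 with it without mitochondrial genes and −0.05 to 0.05 with 1 library left out, where MRPS18C ran from −0.07 to 0.29. Counts near the floor limit MRPS24 alone among the members.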
